A study of Mus musculus with 14 samples.

Results

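The genes described here are 10 genes of transforming growth factor beta (TGF-beta) signalling: the ligands Tgfb1, Tgfb2 and Tgfb3, the receptors Tgfbr1 and Tgfbr2, the latency proteins Ltbp1 and Ltbp2, the intracellular mediators Smad3 and Smad7, and Tgfbi, a matrix protein gene named for its induction by the ligand. They were chosen by symbol, as the probe sets whose array annotation gives that symbol and no other. All 10 were found, each with 1 probe set, among the 19938 genes tested. The animals were male C57BL/6J mice aged 25 months, and the muscle was the plantaris of the calf. It was overloaded by synergist ablation, the removal of the gastrocnemius and soleus, and sampled on days 1, 3, 5, 7, 10 and 14 of overload and on day 0. Each day had 2 arrays, one with RNA pooled from the left and one with RNA pooled from the right muscles of 6 animals. The labels tell of no sham-operated animals, and the surgery and the added load cannot be told apart.

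TGF-beta is made as a precursor. A cut by a furin-type protease leaves the mature dimer wrapped in its own propeptide, and a latent TGF-beta binding protein tethers this silent complex to the matrix until integrins, proteases or thrombospondin release the ligand. The free ligand binds the type II receptor Tgfbr2, which recruits and phosphorylates the type I receptor Tgfbr1. The type I receptor phosphorylates Smad2 and Smad3, which enter the nucleus with Smad4, and Smad7 is an inhibitor that the pathway itself induces. In skeletal muscle the pathway is known for driving fibroblasts to lay down collagen and for restraining the fusion of muscle precursor cells.

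RefSeq promoters of build GRCm38.p6 were used for 8 of the 10 genes, and those of Tgfb3 and Smad7 are not used here. Of these, 3 are shown, each as the 250 bases before the start of transcription, 5′ to 3′ on the strand of the gene. Tgfb1 and Tgfb2 are shown because these ligands moved in opposite directions on day 3, and Ltbp1, at the first of its 2 RefSeq starts, because it fell on day 1 and rose afterwards. They lie at chr7:25686752-25687001 on the plus strand, at chr1:186705990-186706239 on the minus strand and at chr17:75005279-75005528 on the plus strand. Capitals mark matches, on either strand, to 5 motifs. These are the GC box of Sp1-type factors, GGGCGG, and the TATA box near which transcription starts, TATAAA. The others are the cAMP response element, TGACGTCA, the site of AP-1 factors, TGAGTCA, and a core sequence bound by SMAD proteins, CAGACA.
Tgfb1: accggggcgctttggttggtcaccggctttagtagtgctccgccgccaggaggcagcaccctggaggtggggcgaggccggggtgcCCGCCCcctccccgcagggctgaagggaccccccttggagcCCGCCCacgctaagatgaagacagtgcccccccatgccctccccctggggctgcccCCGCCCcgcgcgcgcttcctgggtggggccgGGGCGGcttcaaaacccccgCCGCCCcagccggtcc
Tgfb2: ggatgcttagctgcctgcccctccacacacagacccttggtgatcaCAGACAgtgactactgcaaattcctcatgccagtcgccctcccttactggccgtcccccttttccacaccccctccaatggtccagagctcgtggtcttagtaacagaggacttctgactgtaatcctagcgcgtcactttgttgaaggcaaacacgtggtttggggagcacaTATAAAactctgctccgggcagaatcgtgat
Ltbp1: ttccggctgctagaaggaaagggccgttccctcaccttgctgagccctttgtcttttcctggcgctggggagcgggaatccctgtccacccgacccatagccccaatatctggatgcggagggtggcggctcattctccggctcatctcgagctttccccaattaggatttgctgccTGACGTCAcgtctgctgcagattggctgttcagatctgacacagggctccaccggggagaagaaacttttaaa

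The Tgfb1 window was 75.2% G and C and held 5 GC boxes and no TATA box. The Tgfb2 window was 53.6% G and C and held no GC box, 1 TATA box from 31 to 26 bases before the start and 1 SMAD core sequence. The Ltbp1 window shown was 56.8% G and C and held 1 cAMP response element from 73 to 66 bases before the start. The window of its other start, at chr17:75178531-75178780 on the plus strand, was 50.8% G and C and held no cAMP response element and 2 SMAD core sequences, and which start the probe set reads was not tested. Over all 32851 promoter windows of this length the median was 52.4% G and C. A GC box stood in 32.7% of them, a TATA box in 12.4%, the SMAD core sequence in 17.1%, an AP-1 site in 4.46% and a cAMP response element in 1.55%. No motif searched overlapped another in the 3 windows shown.

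Values are log2 signals, so a difference of 1 is a doubling, and levels are compared between days for 1 gene and not between genes. A gene is called higher or lower where the adjusted p of limma, a linear model with moderated variances over all genes, is under 0.05. Errors are standard errors of a difference between days with n = 2 arrays per day. Adjustment was over genes and not over pairs of days. Pairs of later days that do not follow each other were picked from the ordered day means, so their p-values are a description. The design text was read as taking left and right muscles from the same animals of a day. The p-values therefore reflect how far sides and arrays differ and say nothing of the spread among animals. Left and right correlated at 0.9943 to 0.9971 across genes on each day. The fibre marker list, 10 genes of contractile and energy proteins, averaged 13.1 to 14.1 on every array. The mean of the array medians was 0.029 above day 0 on day 1 and 0.095 to 0.144 above it on days 3 to 14, a shift that scaling to equal medians takes off every difference. With equal array medians, all 47 called differences of the 10 genes from day 0 kept their sign and 46 kept their call, while over all genes the split of higher and lower calls moved. On day 7 there were 4277 higher and 10570 lower genes with equal medians, against 5302 and 7243 as deposited. On days 3, 5, 10 and 14 the equal-median splits were 4157 and 7431, 4366 and 9829, 4182 and 10143, and 3676 and 9288, against 4807 and 5310, 5257 and 6724, 5154 and 6842, and 4559 and 6074 as deposited.

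All 10 genes differed between days by the F test, in a series where 79.5% of all genes did. The call of Tgfbr1 (limma adjusted p = 0.029) was lost with array weights (adjusted p = 0.0607), and without the left array of day 0 (0.0572), of day 1 (0.187) or of day 10 (0.0503) or the right array of day 1 (0.0523). Tgfb1, Ltbp2 and Tgfbi were higher than day 0 on each of the 6 later days, as were 10% of all genes. Tgfbr2 rose from day 3 on. Tgfb3 and Ltbp1 fell on day 1 and rose later, Smad3 and Smad7 rose on day 1 and fell later, Tgfb2 fell on days 3 to 7, and Tgfbr1 rose on day 1 and passed on no later day. Called in both directions were thus 4 of the 10, beside 8.15% of all genes. On day 1, 6 of the 10 were higher and 2 lower than day 0, against 22.3% and 22.6% of all genes. On day 3 there were 6 higher and 1 lower (24.1% and 26.6% of all genes), on day 5 there were 6 and 2 (26.4% and 33.7%) and on day 7 there were 6 and 3 (26.6% and 36.3%). On day 10 there were 6 higher and 2 lower (25.9% and 34.3% of all genes), and on day 14 there were 6 and 1 (22.9% and 30.5%). The median difference of the 10 genes was 0.30 on day 1, 0.94 on day 10 and 0.81 on day 14, beside medians over all genes of 0.04, -0.13 and -0.11.

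**Figure D1:**
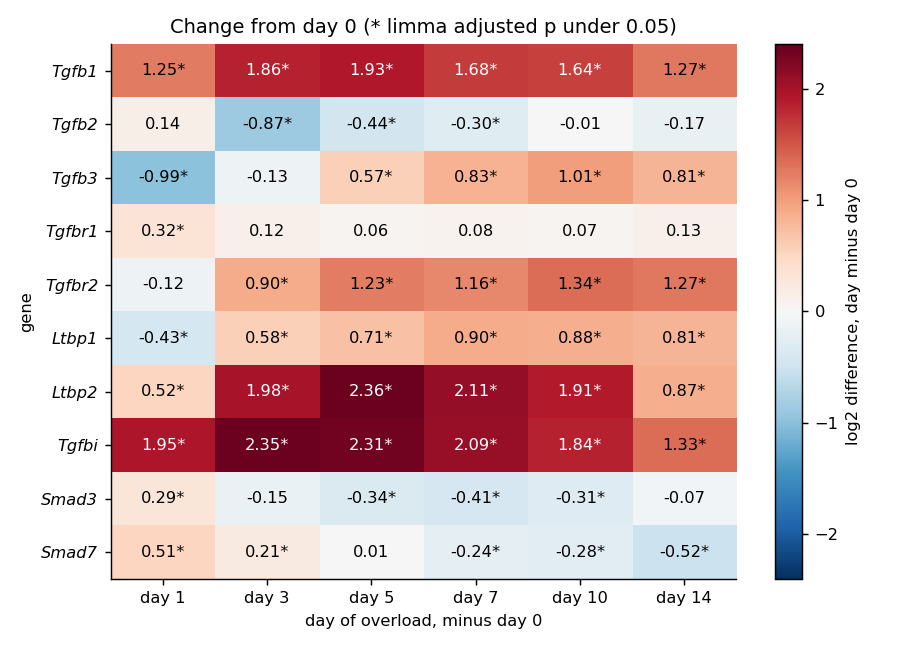
Log2 difference of each of the 10 genes (rows) from day 0 on each later day of overload (columns), with red for higher and blue for lower and a star where the limma adjusted p was under 0.05. Tgfb1, Ltbp2 and Tgfbi are starred and red in all 6 columns, while Tgfb3, Ltbp1, Smad3 and Smad7 hold starred cells of both colours.

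Tgfb1 encodes the ligand most studied in wound repair and fibrosis, made by macrophages, platelets and many other cells. Its left and right arrays stood at 9.60 and 9.17 on day 0, 10.58 and 10.68 on day 1, 11.19 and 11.29 on day 3, 11.26 and 11.36 on day 5, 11.09 and 11.04 on day 7, 10.99 and 11.06 on day 10, and 10.61 and 10.69 on day 14. Every array of days 1 to 14 was thus above both arrays of day 0, and the widest gap between sides, 0.43, was on day 0. Relative to day 0, Tgfb1 was 1.25 ± 0.12 higher on day 1 (limma adjusted p = 2.4e-06), 1.93 ± 0.12 on day 5 (adjusted p = 3.4e-08, 3.80-fold) and 1.27 ± 0.12 on day 14. Day 5 was the highest. No neighbouring days in the order 5, 3, 7, 10, 14, 1 passed the test against each other, but days further apart, picked from that order, did. Day 5 was 0.68 ± 0.12 above day 1 (adjusted p = 3.8e-04). Day 14 was 0.66 ± 0.12 below day 5 (adjusted p = 0.0012) and 0.41 ± 0.12 below day 7 (adjusted p = 0.027).

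Tgfb2 encodes a ligand whose propeptide, unlike those of the other ligands, lacks the RGD motif through which integrins release the mature form. The arrays stood, left and right, at 10.38 and 10.21 on day 0, 10.37 and 10.50 on day 1, 9.47 and 9.39 on day 3, 9.93 and 9.78 on day 5, 10.04 and 9.97 on day 7, 10.32 and 10.25 on day 10, and 10.11 and 10.14 on day 14. The day 3 arrays were the lowest of the 14, and the arrays of days 1 and 10 overlapped those of day 0. Tgfb2 fell by 0.87 ± 0.09 on day 3 relative to day 0 (limma adjusted p = 2.6e-06, a 1.83-fold fall), and stood at -0.44 ± 0.09 on day 5 and -0.30 ± 0.09 on day 7. The call of day 7 was lost without the left array of day 0 (adjusted p = 0.0858) or the right array of day 7 (adjusted p = 0.0592). Day 3 was 1.01 ± 0.09 lower than day 1 (adjusted p = 3.0e-06), and day 5 was 0.43 ± 0.09 higher than day 3 (adjusted p = 0.010). On day 14 Tgfb2 stood at -0.17 ± 0.09 (adjusted p = 0.11), and it was called lower there with quantile normalization (adjusted p = 0.044) and with equal array medians (adjusted p = 0.0078).

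Tgfb3 encodes the ligand known from palate closure and scar-poor repair. The left and right arrays of Tgfb3 stood at 11.35 and 11.25 on day 0, 10.20 and 10.43 on day 1, 11.17 and 11.17 on day 3, 11.99 and 11.76 on day 5, 12.22 and 12.04 on day 7, 12.39 and 12.23 on day 10, and 12.17 and 12.06 on day 14. Both day 1 arrays were below every other array and all arrays of days 5 to 14 were above both of day 0. Tgfb3 fell by 0.99 ± 0.11 on day 1 relative to day 0 (limma adjusted p = 9.9e-06, a 1.98-fold fall). It was 0.57 ± 0.11 higher on day 5 and 1.01 ± 0.11 higher on day 10 (adjusted p = 5.8e-06, 2.01-fold). Day 3 differed from day 1 by 0.86 ± 0.11 (adjusted p = 6.4e-05) and day 5 from day 3 by 0.70 ± 0.11 (adjusted p = 0.0022). In the order 10, 7, 14, 5 no neighbours passed the test. Day 10 was 0.44 ± 0.11 above day 5 (limma adjusted p = 0.021), a pair picked from that order.

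The 3 ligands followed different courses when the difference itself was tested, by the F test on the log2 value of 1 gene minus that of the other. The same subtracted values enter every gene, here and in the pairs further below, so the variances moderated over genes are not independent. The p-values and shares of all genes in these pair tests are therefore not comparable with those of single genes, and the p-values may be far too small. Tgfb2 differed from Tgfb1 most on day 3, where the change from day 0 was -0.87 for Tgfb2 and 1.86 for Tgfb1 and the difference was -2.73 ± 0.17 (limma adjusted p of the course = 9.5e-27). Tgfb3 differed from Tgfb1 most on day 1, at -0.99 for Tgfb3 and 1.25 for Tgfb1 (difference -2.23 ± 0.17, adjusted p = 6.0e-24). Of all genes 99.5% differed from Tgfb1 in this test, so a difference from Tgfb1 is not particular to the other ligands. Tgfb3 differed from Tgfb2 most on day 7, at 0.83 for Tgfb3 and -0.30 for Tgfb2 (difference 1.13 ± 0.11, adjusted p = 4.1e-12), beside 99.9% of all genes in the test against Tgfb2.

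**Figure D2:**
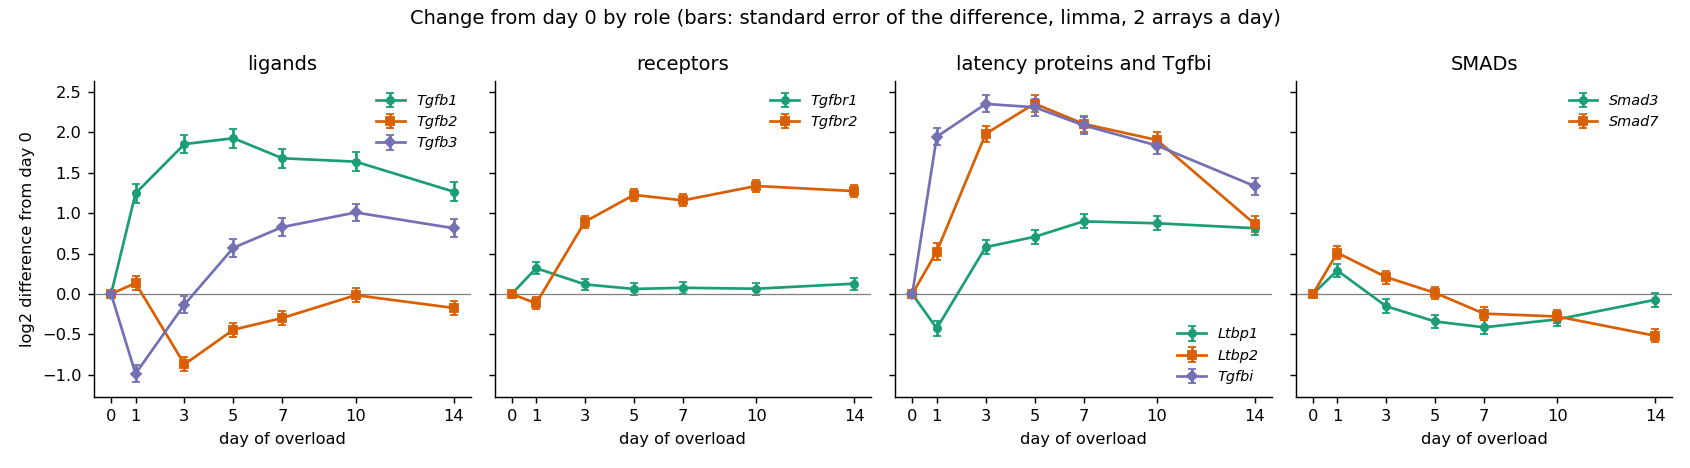
Log2 difference from day 0 (vertical axis) against day of overload (horizontal axis) for the ligands, the receptors, the latency proteins with Tgfbi, and the SMAD genes, with bars for the standard error. On day 3 Tgfb1 stands at 1.86 and Tgfb2 at -0.87, and on day 10 Tgfbr2 stands at 1.34 and Tgfbr1 at 0.07.

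Tgfbr2 encodes the type II receptor, the one that binds the free ligand first. On its left and right arrays it stood at 10.51 and 10.40 on day 0, 10.40 and 10.28 on day 1, 11.34 and 11.37 on day 3, 11.69 and 11.68 on day 5, 11.67 and 11.56 on day 7, 11.81 and 11.79 on day 10, and 11.75 and 11.71 on day 14. All arrays from day 3 on were above those of days 0 and 1. On day 1 Tgfbr2 stood at -0.12 ± 0.07 from day 0 (limma adjusted p = 0.23). It then was 0.90 ± 0.07 higher on day 3, 1.34 ± 0.07 on day 10 (adjusted p = 2.1e-08, 2.53-fold) and 1.27 ± 0.07 on day 14. In the order 10, 14, 5, 7 no neighbouring days passed the test. Day 7 was above day 3, the next in the order, by 0.26 ± 0.07 (limma adjusted p = 0.029), a pair picked from that order.

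Tgfbr1, the type I receptor kinase that carries the signal inward, spanned 10.35 to 10.74 over the 14 arrays. Its left and right arrays stood at 10.35 and 10.40 on day 0, 10.74 and 10.64 on day 1, 10.42 and 10.56 on day 3, 10.42 and 10.46 on day 5, 10.46 and 10.44 on day 7, 10.43 and 10.44 on day 10, and 10.48 and 10.53 on day 14. The day 1 arrays were the highest of the 14, and both day 0 arrays lay below all others. That day 1 difference of 0.32 ± 0.07 (limma adjusted p = 0.0030, 1.25-fold) was its only call against day 0. On days 3 to 14 it stood between 0.06 and 0.13 above day 0, with adjusted p from 0.15 to 0.47, and the sign turned on days 5, 7 and 10 with equal array medians. The 95% interval of the day 10 difference ran from -0.09 to 0.22. The receptors differed in their courses, most on day 10, where the change of Tgfbr2 exceeded that of Tgfbr1 by 1.27 ± 0.09 (adjusted p of the course = 7.1e-09). In that test 74.3% of all genes differed from Tgfbr1.

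Ltbp1 and Ltbp2 encode proteins of the latent TGF-beta binding family. Ltbp1 binds the latent complex and anchors it to fibrillin and fibronectin, while Ltbp2 is a microfibril protein that does not bind latent TGF-beta. The left and right arrays of Ltbp2 stood at 8.08 and 7.90 on day 0, 8.64 and 8.38 on day 1, 9.87 and 10.07 on day 3, 10.31 and 10.38 on day 5, 10.04 and 10.15 on day 7, 9.90 and 9.89 on day 10, and 8.87 and 8.84 on day 14. The arrays of days 3 to 10 lay above all others. Relative to day 0, Ltbp2 was 0.52 ± 0.10 higher on day 1 and 2.36 ± 0.10 higher on day 5 (limma adjusted p = 2.9e-09, 5.12-fold). It was 0.87 ± 0.10 higher on day 14. Between days 10 and 14 it fell by 1.04 ± 0.10 (adjusted p = 4.8e-04, a 2.06-fold fall).

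Ltbp1 stood at 8.67 and 8.74 on the left and right arrays of day 1, against 9.23 and 9.03 on day 0. It fell by 0.43 ± 0.09 on day 1 relative to day 0 (limma adjusted p = 0.0016). The left and right arrays then stood at 9.67 and 9.75 on day 3, 9.82 and 9.86 on day 5, 10.01 and 10.05 on day 7, 10.06 and 9.95 on day 10, and 10.03 and 9.86 on day 14, all above both day 0 arrays. The difference from day 0 was 0.58 ± 0.09 on day 3, 0.90 ± 0.09 on day 7 (adjusted p = 2.5e-06, 1.86-fold) and 0.81 ± 0.09 on day 14. In the order 7, 10, 14, 5, 3 no neighbouring days passed the test. Day 7 was 0.32 ± 0.09 above day 3 (limma adjusted p = 0.027), a pair picked from that order. The latency proteins differed from each other most on day 5, by 1.65 ± 0.13 in their change from day 0 (Ltbp2 minus Ltbp1, adjusted p of the course = 4.5e-12), in a test where 99.7% of all genes differed from Ltbp1.

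Tgfbi encodes a secreted matrix protein that binds collagens and integrins. Left and right arrays of Tgfbi stood at 10.81 and 10.54 on day 0, 12.66 and 12.58 on day 1, 12.98 and 13.08 on day 3, 12.88 and 13.09 on day 5, 12.68 and 12.85 on day 7, 12.46 and 12.57 on day 10, and 12.01 and 12.02 on day 14. No array of a later day came near those of day 0, the lowest being on day 14. Relative to day 0, Tgfbi was 1.95 ± 0.11 higher on day 1 (limma adjusted p = 2.9e-08, 3.85-fold), 2.35 ± 0.11 higher on day 3 (adjusted p = 4.8e-09, 5.11-fold) and 1.33 ± 0.11 higher on day 14. It fell by 0.50 ± 0.11 between days 10 and 14 (adjusted p = 0.014).

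Smad7 encodes the inhibitory SMAD, which competes for the type I receptor and recruits ubiquitin ligases to it. Its left and right arrays stood at 8.90 and 9.0 on day 0, 9.51 and 9.41 on day 1, 9.07 and 9.24 on day 3, 8.96 and 8.96 on day 5, 8.72 and 8.69 on day 7, 8.72 and 8.62 on day 10, and 8.43 and 8.43 on day 14. The day 1 arrays were the highest and the day 14 arrays the lowest of the 14. Against day 0, Smad7 was 0.51 ± 0.08 higher on day 1 (limma adjusted p = 1.7e-04, 1.42-fold) and fell by 0.52 ± 0.08 on day 14 (adjusted p = 1.6e-04, a 1.43-fold fall). The day 3 call, 0.21 ± 0.08 (adjusted p = 0.043), was lost under 15 of the 24 alternatives run, with adjusted p up to 0.49. The falls of day 7 (-0.24 ± 0.08, adjusted p = 0.018) and day 10 (-0.28 ± 0.08, adjusted p = 0.0091) were lost without the right array of day 0 (adjusted p = 0.11 and 0.070). They were also lost without an array of their own day, on day 7 with either left out (adjusted p = 0.051 and 0.076) and on day 10 with the right one left out (adjusted p = 0.074). On day 5 Smad7 stood at 0.01 ± 0.08, and its sign turned with quantile normalization and with equal array medians.

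Smad3 encodes the receptor-activated SMAD that binds DNA. Its left and right arrays stood at 10.80 and 10.96 on day 0, 11.20 and 11.15 on day 1, 10.72 and 10.74 on day 3, 10.58 and 10.50 on day 5, 10.53 and 10.40 on day 7, 10.57 and 10.57 on day 10, and 10.72 and 10.90 on day 14. Both day 1 arrays were above every other array, the arrays of days 3 to 10 were below both of day 0, and those of day 14 overlapped day 0. The day 1 difference of 0.29 ± 0.09 (limma adjusted p = 0.014) was lost without the left array of day 0 (adjusted p = 0.12) or of day 1 (adjusted p = 0.065) and with only the 4 arrays compared (adjusted p = 0.060). Smad3 fell by 0.34 ± 0.09 on day 5, fell by 0.41 ± 0.09 on day 7 (adjusted p = 0.0012, a 1.33-fold fall) and fell by 0.31 ± 0.09 on day 10, and the day 10 call was lost without the right array of day 0 (adjusted p = 0.070). On day 14 it stood at -0.07 ± 0.09 (adjusted p = 0.49). Smad7 and Smad3 differed most on day 14, by -0.45 ± 0.11 in their change from day 0 (Smad7 minus Smad3, adjusted p of the course = 5.6e-05), where 76.2% of all genes differed from Smad3.

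**Figure D3:**
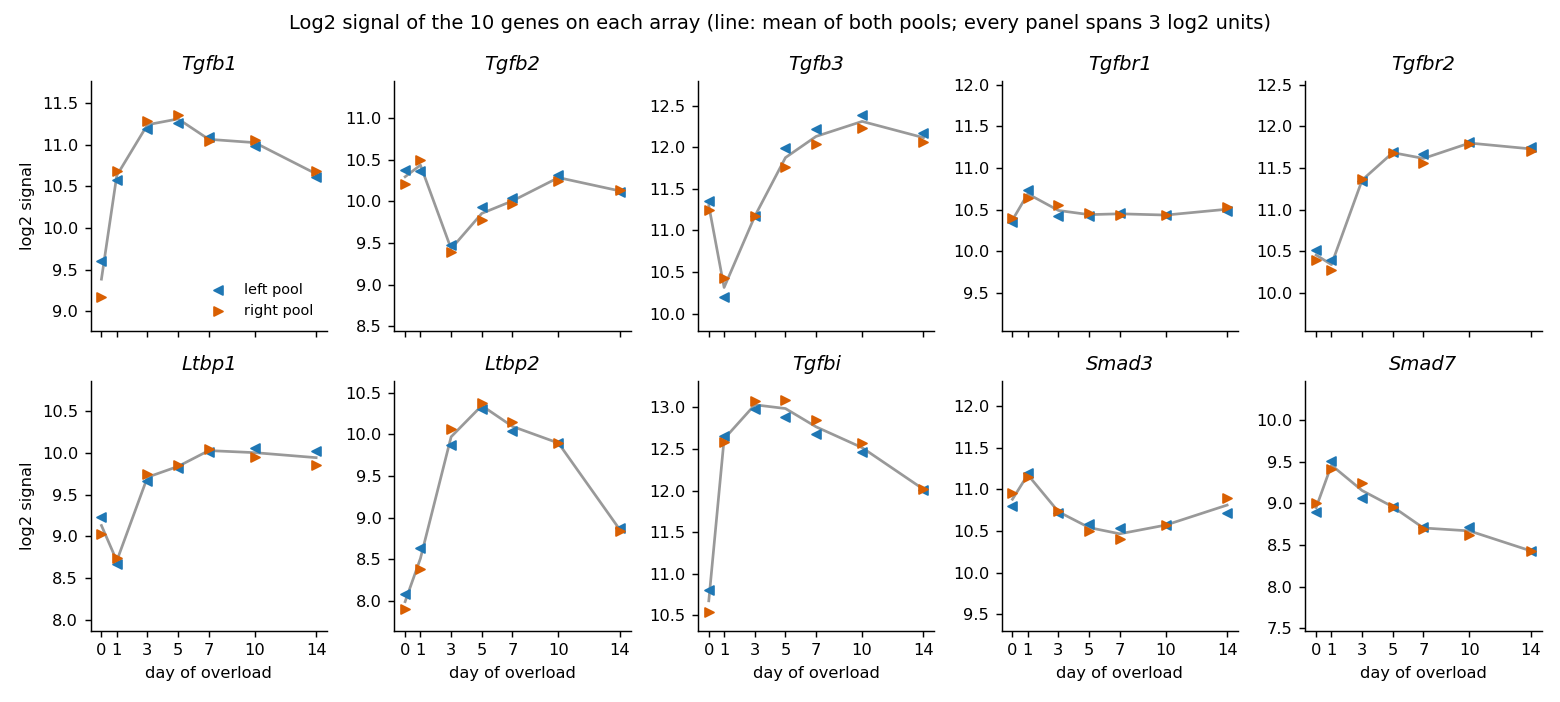
Log2 signal (vertical axis, 3 log2 units in every panel) of each of the 10 genes on the 14 arrays against day of overload, with triangles for the left and right pools and a line through their mean. Tgfbr1 stays within 10.35 to 10.74, while the arrays of Tgfb3 span 10.20 on day 1 to 12.39 on day 10.

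After day 1, the step between sampled days with the most calls among the 10 genes was that between days 1 and 3. Relative to day 1, 6 of the 10 were higher and 4 lower on day 3, against 19.5% and 24.7% of all genes. Relative to day 3, Tgfb2, Tgfb3, Tgfbr2 and Ltbp2 were higher on day 5 (4.68% of all genes were higher and 1.9% lower), and at an unadjusted p under 0.05 a further 2 were lower. In limma 0 of the 10 passed between days 5 and 7 (0.401% of all genes higher and 0.627% lower) and 0 between days 7 and 10 (0.933% and 1%), with 3 at an unadjusted p under 0.05 in each comparison. Ltbp2 and Tgfbi were lower on day 14 than on day 10 (3.79% of all genes were higher and 5.11% lower), and at an unadjusted p under 0.05 there were 4 lower and 1 higher. All shares of all genes in this paragraph are at adjusted p. They cannot be set beside the counts at unadjusted p, for which no share of all genes was computed.

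Other genes of the pathway were read from a list of 32, of which 31 were analysed here. On day 1, 15 were higher and 8 lower than day 0, with a median difference of 0.16 (22.3% and 22.6% of all genes, with a median of 0.04). On day 14, 27 were higher and 3 lower, with a median of 0.54 (22.9% and 30.5% of all genes, with a median of -0.11). In all, 15 were higher and 3 lower on every later day, beside 10% and 11.8% of all genes. Mmp14, a membrane protease that can release latent TGF-beta, averaged 12.73 on day 10 and 9.52 on day 0, a difference of 3.21 ± 0.09 (limma adjusted p = 1.6e-10). Bmp1, the protease that cuts latent binding proteins and procollagen, was 2.15 ± 0.07 higher on day 10, and Fbn2, the fibrillin of developing microfibrils, 2.98 ± 0.13. Thbs1, thrombospondin 1, an activator of latent TGF-beta, was 2.50 ± 0.18 higher on day 1, and Tgif1, a repressor of SMAD transcription, 2.57 ± 0.07.

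The falls of that list were led by Fmod, a proteoglycan of tendon and matrix that binds TGF-beta, which averaged 9.63 on day 1 and 11.56 on day 0 and fell by 1.93 ± 0.14 (limma adjusted p = 3.4e-07). Zfyve9, the SARA anchor that brings SMADs to the receptor, fell by 1.80 ± 0.13 on day 7. Ltbp4, a latent binding protein known as a modifier of muscular dystrophy in mice, fell by 1.12 ± 0.10 on day 1. It stood 0.79 above day 0 on day 14 and was one of 5 genes of the list called in both directions.

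**Figure D4:**
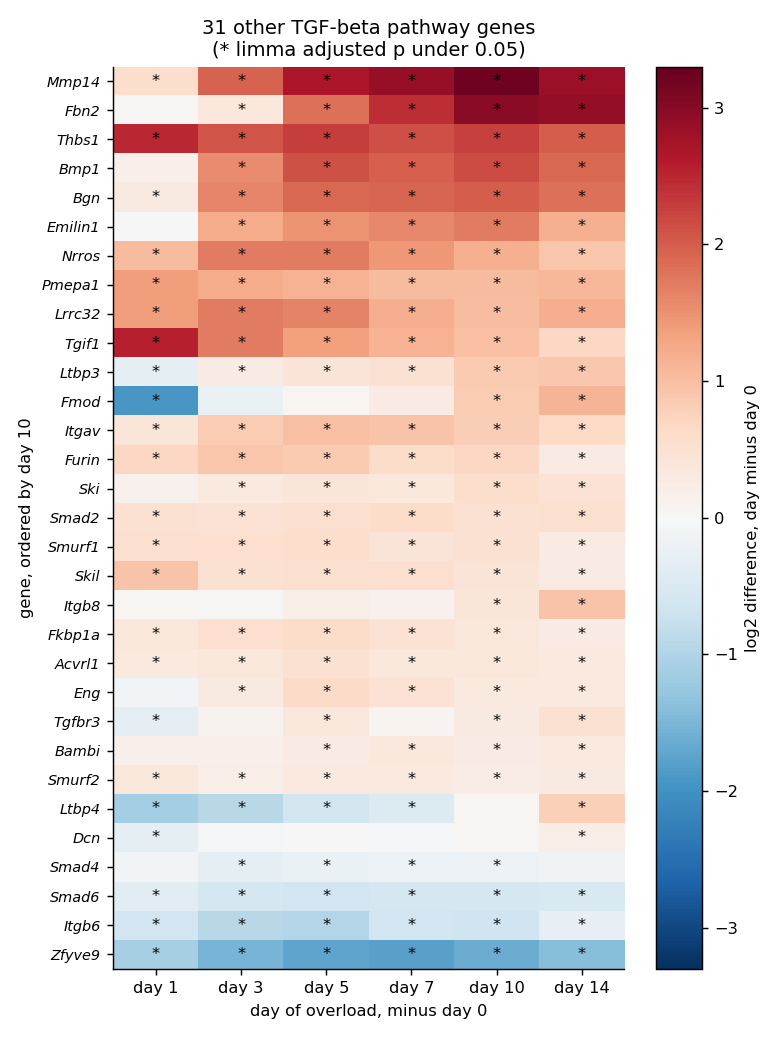
Log2 difference from day 0 of 31 other TGF-beta pathway genes (rows, ordered by day 10) on each later day (columns), red for higher and blue for lower, with a star where the limma adjusted p was under 0.05. Mmp14 and Fbn2 head the order at 3.21 and 2.98 on day 10, and Zfyve9 stands last.

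Genes known to respond to TGF-beta were read from a second list of 21, of which 19 were analysed here and 2, Skil and Pmepa1, also stand in the first list. On day 1, 11 were higher and 5 lower than day 0 (22.3% and 22.6% of all genes). On day 5 there were 17 higher (26.4% of all genes were higher and 33.7% lower), and on day 14 there were 18 higher and 1 lower (22.9% and 30.5%). The list medians were 0.38, 1.53 and 1.09 on those days, beside 0.04, -0.12 and -0.11 over all genes. Several of these genes respond to other signals as well, and which signal moved them was not tested. Timp1, an inhibitor of matrix proteases, averaged 13.11 on day 3 and 7.75 on day 0, a difference of 5.35 ± 0.13 (limma adjusted p = 2.0e-10). Lox, the collagen crosslinking enzyme, was 4.28 ± 0.17 higher on day 5, Postn, which encodes periostin, 4.25 ± 0.19 on day 10, Tnc, which encodes tenascin C, 4.05 ± 0.16 on day 7 and the collagen gene Col1a1 3.29 ± 0.08 on day 10. On day 1 the contractile genes Tagln and Acta2 and the BMP target Id3 were lower than on day 0, at -0.98 ± 0.16, -0.87 ± 0.10 and -0.63 ± 0.11.

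Marker lists of cell types moved over the same days. They are not all separate from the lists above. Col1a1, Col3a1 and Dcn also stand in the fibroblast list, and Scx and Fmod in the tendon list. The counts of called marker genes below stand beside these shares of all genes. Day 1 had 22.3% higher and 22.6% lower, day 3 had 24.1% and 26.6%, and day 5 had 26.4% and 33.7%. Day 10 had 25.9% and 34.3%, day 14 had 22.9% and 30.5%, and 10% were higher on every later day. In bulk muscle, fewer cells of a type and less RNA per cell cannot be told apart, and the part of cell numbers in the results above was not tested. The macrophage and monocyte list, with all 10 genes higher on every later day, averaged 11.48 and 11.49 on the left and right arrays of day 3, against 8.93 and 8.55 on day 0. Its left array stood above its right on day 0, as for Tgfb1. The same held for the neutrophil, platelet, fibroblast, tendon, endothelial, smooth muscle and T cell lists. The fibre, satellite cell and Schwann cell lists stood the other way. The platelet list, of which 4 of 6 genes were analysed here, averaged 11.03 and 11.02 on day 3, against 10.53 and 9.69 on day 0, and its genes went both ways. Pf4 and Ppbp, which encode platelet chemokines, were 2.91 and 1.26 higher on day 3, while Itga2b fell by 0.40 and Gp9 stood at -0.13. All 6 genes of the neutrophil list were higher on day 1, when it averaged 11.62 and 11.48, against 9.59 and 9.04 on day 0, and 5 of 6 were lower on day 14.

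The fibroblast and fibro-adipogenic progenitor list had 5 of 8 genes lower and 2 higher on day 1 and 7 of 8 higher on day 14. It averaged 9.91 and 9.97 on the arrays of day 1 and 11.96 and 11.88 on those of day 14, against 10.35 and 10.27 on day 0. The tendon list had 3 of 4 genes lower and 1 higher on day 1 and all 4 higher on days 10 and 14. It averaged 8.67 and 8.72 on the arrays of day 1 and 11.19 and 11.25 on those of day 14, against 9.74 and 9.44 on day 0. Tnmd, which encodes the tendon protein tenomodulin, fell by 1.62 on day 1 and was 3.23 higher on day 14. Like Tgfb3 and Ltbp1, the fibroblast and tendon lists were thus below day 0 on day 1 and above it on day 14. So was the endothelial list, which averaged 10.59 and 10.54 on the left and right arrays of day 0. It averaged 10.15 and 9.90 on those of day 1 and 10.81 and 10.83 on those of day 14. The smooth muscle and pericyte list had 5 of 6 genes lower on each of days 1 and 3. The fibre list had 9 of 10 genes lower on day 5, with a median difference of -0.67. The endothelial list had 4 of 7 genes lower on day 1, and 5 higher and 2 lower on day 5.

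**Figure D5:**
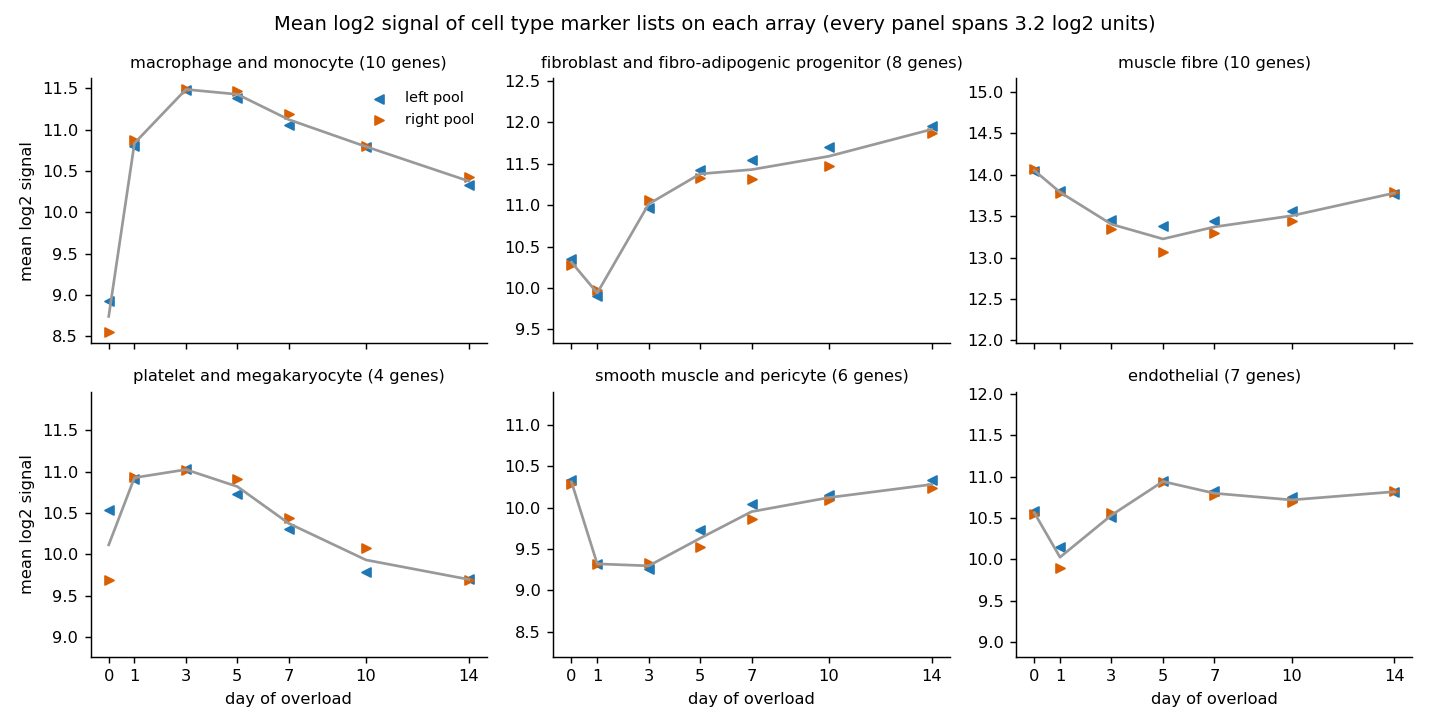
Mean log2 signal (vertical axis, 3.2 log2 units in every panel) of 6 cell type marker lists on the 14 arrays against day of overload, with triangles for the left and right pools and a line through their mean. The macrophage list stands at 11.48 and 11.49 on day 3 against 8.93 and 8.55 on day 0, and the fibroblast list dips on day 1 and is highest on day 14.

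For each of the 10 genes, the most similar of all named genes were found by Pearson correlation of log2 signals over the 14 arrays. The arrays share days, so these values describe likeness of time course and carry no p. Nearest to Tgfb1 were Ptprj (r = 0.997), B4galnt1 (0.994) and Apobec1 (0.993), and nearest to Tgfbi were Nckap1l (0.997), Inpp5d (0.994) and Ms4a6d (0.994), of which Nckap1l and Inpp5d are genes of blood cells. Tgfb1 and Tgfbi correlated with each other at 0.963. Nearest to Tgfbr2 were Anpep, Col1a1 and Col1a2, all at 0.998, and nearest to Ltbp1 were Serpinf1 (0.993), Manba (0.991) and Slc39a13 (0.989). Ltbp1 and Tgfbr2 correlated at 0.964. Col1a1 and Col1a2 encode the chains of collagen I.

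Nearest to Ltbp2 were Reep4 (0.990), Ska3 (0.983) and Pimreg (0.983), of which Ska3 acts at the mitotic spindle. Nearest to Tgfb3 were Casq2 (0.987), the calcium store protein of cardiac and slow muscle, Sh3glb2 (0.985) and Dpy19l3 (0.985). Tgfb3 and Smad7 correlated at -0.902. Likeness was lower for Tgfb2 (Dennd2c at 0.946, Dusp16 at 0.923, Cavin4 at 0.905), Tgfbr1 (Jmjd1c at 0.946, Eppin at 0.940, Rhof at 0.932) and Smad3 (Blzf1 at 0.945, Alpk2 at 0.944, Trim16 at 0.942). Smad7 was nearest to Tatdn2 (0.977), Npc1 (0.966) and Irf2 (0.964).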

How the data were processed

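RNA pools were hybridised to Affymetrix Mouse Gene 1.0 ST arrays. The table the authors deposited holds 1 log2 signal per probe set and array. Partek is named in the submitters' processing notes without a version, and the background correction and normalization are not given in the sources used here. RNA input is stated as 100 ng in one label and 250 ng in another. No detection call was used, and precision is limited by having 2 arrays a day.

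Of 35557 probe sets, 21789 had 1 gene symbol, 1621 several and 12147 none. The probe set with the highest mean stood for a gene. Day means were fitted by limma 3.58.1 (R 4.3.3) over the 14 arrays, with two-sided p-values and Benjamini-Hochberg adjustment over all genes. A trial on simulated data used independent noise and shifts on day 3 only, unlike pools of the same animals, and is not used as support. No filter on low values was applied, so all 10 genes entered. The 10 genes, the lists and the tests were chosen with earlier results of these data known. Beside the 10 genes, named were the 5 largest called rises and 3 largest called falls of the pathway and target lists and the 3 most correlated genes of each. Alternatives were 2 other scalings (quantile normalization and equal medians), array weights, other choices of probe set, variance model, threshold and low-signal filter, a fit of 4 arrays, the side as a block, and each array left out. The difference between sides, taken across genes, correlated between days at -0.185 to 0.354 (median 0.066, above 0.1 for 6 of the 21 day pairs), so the side was not taken to pair the arrays. With the day as a block, limma called 0 of the 10 genes between sides (adjusted p of 0.615 or more, and 0 at an unadjusted p under 0.05).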

Additional observations from a re-analysis of the deposited data

Results flagged for a closer look

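Of the 10 genes, 4 were called in opposite directions from day 0 on different days, as were 8.15% of all genes. The days set against each other below are the most distant of each gene, chosen from the same values, so the differences are given as a description with their standard errors and without a test. Tgfb3 was lower than day 0 on day 1 and higher from day 5, and its change on day 10 exceeded that on day 1 by 1.995 ± 0.11. Ltbp1 was lower on day 1 and higher from day 3, and day 7 exceeded day 1 by 1.32 ± 0.09. Smad3 was higher on day 1 and lower on days 5 to 10, and day 7 minus day 1 was -0.70 ± 0.09. Its day 1 call, the only one upward, was lost under 4 of the 24 alternatives run. Smad7 was higher on days 1 and 3 and lower on days 7 to 14, and day 14 minus day 1 was -1.03 ± 0.08. The Smad7 calls of days 3, 7 and 10 were lost under 15, 4 and 2 of the 24 alternatives, and those of days 1 and 14 under 0. On day 1 the fibroblast marker list had 5 of 8 genes lower and the macrophage list 10 of 10 higher (22.6% of all genes were lower and 22.3% higher). The part of cell numbers in these reversals was not tested.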

How the results depend on the processing

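Of the 47 called differences of the 10 genes from day 0, 41 kept direction and call under all 24 alternatives run, 6 lost the call under at least 1 and 0 turned sign. The 6 belong to Tgfb2 on day 7, Smad3 on days 1 and 10, and Smad7 on days 3, 7 and 10. Most of the 24 could not turn a sign. The size of a difference could change only under the 2 other scalings or without an array of that day or of day 0. The other alternatives kept the size by construction and could change only the call. Counts of genes higher were within 1.5 times of 6 on every day under every alternative. The number of genes lower was 2 on day 14 with quantile normalization and with equal array medians and 2 on day 3 with equal medians, against 1 each as deposited. Leaving out each array in turn gave 0 to 2 lower on day 10, with 0 without the right array of day 0 and 1 without the right array of day 10, and 1 to 3 on day 7, with 1 without the right array of day 7. The F test then called 9 to 10 genes, with Tgfbr1 the one lost. With the side as a replicate block all 10 genes differed between days, 6 were higher on day 10, and no call changed. Differences that were not called turned sign for Tgfb2 on day 10 (-0.0997 to 0.0702 over the arrays left out), Smad3 on day 14 (-0.16 to 0.0204), Smad7 on day 5 (-0.037 to 0.0639 over the arrays left out, -0.16 with quantile normalization and -0.12 with equal medians) and Tgfbr1 on days 5, 7 and 10 (-0.0668, -0.0673 and -0.0707 with equal medians). The cause was not tested. Each result rests on 2 arrays of 1 set of animals per day.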
